A study of Caenorhabditis elegans with 245 samples.

Results

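The mir-44 family of *C. elegans* consists of 4 microRNA (miRNA) genes, mir-44, mir-45, mir-61 and mir-247. Its members were taken as the rows of class miRNA that carry these names in the small RNA tables, which hold 250 miRNA rows among 126388 rows of all classes, and all 4 were found (as cel-mir-44, cel-mir-45, cel-mir-61 and cel-mir-247). Small RNAs of 18 to 40 nt were sequenced from whole adult males, purified sperm and whole adult females, in 45 libraries that fall into 10 groups. The other samples of the series, out of 245, are mRNA libraries and were not used here. Every strain carried *fog-2*, a mutation that makes XX animals females without sperm and leaves males able to make sperm, so that the *fog-2* strain served as the wild type (WT). The WT groups were whole males (4 libraries) and sperm (4 libraries). *rnst-2* encodes an RNase T2, and 2 of its alleles were used: pen1, an insertion-deletion that shifts the frame to a premature stop (written ∆), and pen4, a substitution at a catalytic residue of a GFP and 3xFLAG tagged *rnst-2* (written *cat*). Homozygotes were compared with heterozygotes over the balancer tmc16: ∆/+ males (5), ∆/∆ males (6), *cat*/+ males (5), *cat*/*cat* males (6), ∆/+ females (4) and ∆/∆ females (4). A separate experiment gave *cat*/*cat* sperm (4 libraries) and *cat*/*cat* whole males (3 libraries, replicates 1, 3 and 4). Whole animals were pooled, having been picked as L4 larvae and collected as adults a day later, the females unmated. Sperm were released by pressing males from large cultures, which were mostly but not only males and were slightly less pure for the *rnst-2* mutants.

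miRNAs are short RNAs that are cut from hairpin precursors and guide Argonaute proteins to mRNAs. Pairing rests mainly on bases 2 to 8 of the mature miRNA, the seed, and miRNAs with the same seed are counted as one family because they can bind the same sites. In the hermaphrodite germ line the mir-44 family has been reported to promote the sperm fate. mir-61 is also known from the vulva, where it acts downstream of LIN-12/Notch and represses *vav-1*.

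The mature sequences of the 3′ arms show what makes the family. They are printed 5′ to 3′ from RefSeq annotation of WBcel235, and the capitals mark the seed.
mir-44: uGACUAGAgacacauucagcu
mir-45: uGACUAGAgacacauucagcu
mir-61: uGACUAGAaccguuacucauc
mir-247: uGACUAGAgccuauucucuucu
The seed GACUAGA is in 4 of the 458 mature entries that RefSeq lists for 260 miRNA genes, and all 4 are these. No other entry holds bases 2 to 7 of it. mir-44 and mir-45 are identical over all 21 bases, so that a read of the mature miRNA cannot be assigned to one of the genes. After base 8, mir-61 shares 1 of 13 positions with mir-44, and mir-247 shares 3 of 13 with mir-44 and 8 of 13 with mir-61.

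The 5′ arms of the same hairpins are shown because they lack the seed of the family and tell mir-44 from mir-45. Their own bases 2 to 8 are in capitals.
mir-44 5′ arm: cUGGAUGUgcucguuggucaua
mir-45 5′ arm: cUGGAUGUgcucguuagucaua
mir-61 5′ arm: uGGGUUACggggcuuaguccuu
mir-247 5′ arm: uAGAGAAAaguuucuaauuacc
Those of mir-44 and mir-45 differ at 1 of 22 positions. The tables give 1 row per miRNA, and which arm was counted is not given in the sources used here. The deposited rows divide the counts of mir-44 and mir-45 nearly evenly, with mir-45 taking 49.6% to 59.0% (median 50.6%) over the 45 libraries. Both rows were therefore summed and are called mir-44/45, which leaves 3 features for the 4 genes.

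In WBcel235 the mature mir-44 lies at II:11890083-11890103 on the plus strand and the mature mir-45 at II:11880959-11880979 on the minus strand, with 8983 bp between the genes. The mature mir-61 lies at V:11770076-11770096 on the minus strand and the mature mir-247 at X:4757031-4757052 on the plus strand. Each is an exonic part of its own miRNA gene, and the annotation places none of the 4 hairpins in a protein-coding gene. The mir-45 hairpin overlaps the non-coding RNA ZK930.13 on the opposite strand. Within 2000 bp on the same strand, mir-44 has mir-42 (117 bp away) and mir-43 (15 bp) upstream, mir-61 has mir-250 (44 bp) downstream, and mir-247 has mir-797 (40 bp) downstream. The mature sequences of 3 of these neighbours are shown with bases 2 to 8 in capitals, because those neighbours also share a seed, a different one.
mir-43: uAUCACAGuuuacuugcugucgc
mir-250: aAUCACAGucaacuguuggc
mir-797: uAUCACAGcaaucacaaugagaaga
This seed is in 4 RefSeq entries, so that 3 of the 4 family loci, on chromosomes II, V and X, pair a GACUAGA miRNA with an AUCACAG miRNA.

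Libraries held between 4976236 and 51191372 counts (median 11319131), of which 3879265 to 38651137 (median 9362060) lay outside rRNA. rRNA-fragments took 2.49% to 5.78% of the counts of WT males, 15.9% to 24.5% in WT sperm and 58.7% to 68.3% in *cat*/*cat* sperm. Levels are therefore given as reads per 1000000 counts outside rRNA (rpm). miRNAs made up 36.2% to 46.8% of these counts in WT males and 6.10% to 10.1% in WT sperm, so each comparison is also given as reads per 1000000 miRNA counts (miRNA rpm), which asks whether a member moved relative to the other miRNAs of the same library. Fragments of mRNAs were used to check the labels. The 13 sperm markers, mainly *msp* genes, summed to 0.388 to 1.89 rpm in females, 23.9 to 29.3 rpm in WT males, 104 to 181 rpm in WT sperm and 526 to 639 rpm in *cat*/*cat* sperm. They did not order the other groups by label: the *cat*/*cat* whole males of the sperm experiment were at 310 to 457 rpm, above every WT sperm library, and ∆/∆ and *cat*/*cat* males reached 154 and 159 rpm. Markers of other cells were not at 0 in sperm: the 10 somatic mRNAs, all found in each sperm library, summed to 241 to 507 rpm in WT sperm against 18.9 to 37.6 rpm in WT males, and the 5 oocyte mRNAs to 19.9 to 29.4 rpm against 1.90 to 4.56 rpm. Fragments of *rnst-2* numbered 0 to 32 counts in ∆/+ males and 2 to 15 in ∆/∆ males, and at this depth they do not check the genotypes.

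mir-44/45 was among the more abundant miRNAs of every library. Its counts ranged from 1949 to 242883 per library, and it ranked between 5 and 20 among all miRNA rows (median 10). mir-61 had 2034 to 39949 counts and ranked between 14 and 30 (median 18). mir-247 was rare, with 2 to 821 counts and a rank between 73 and 225 (median 188), so that its values carry far more counting error. Together the members made up 0.508% to 7.11% of miRNA counts (median 3.01%).

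**Figure D1:**
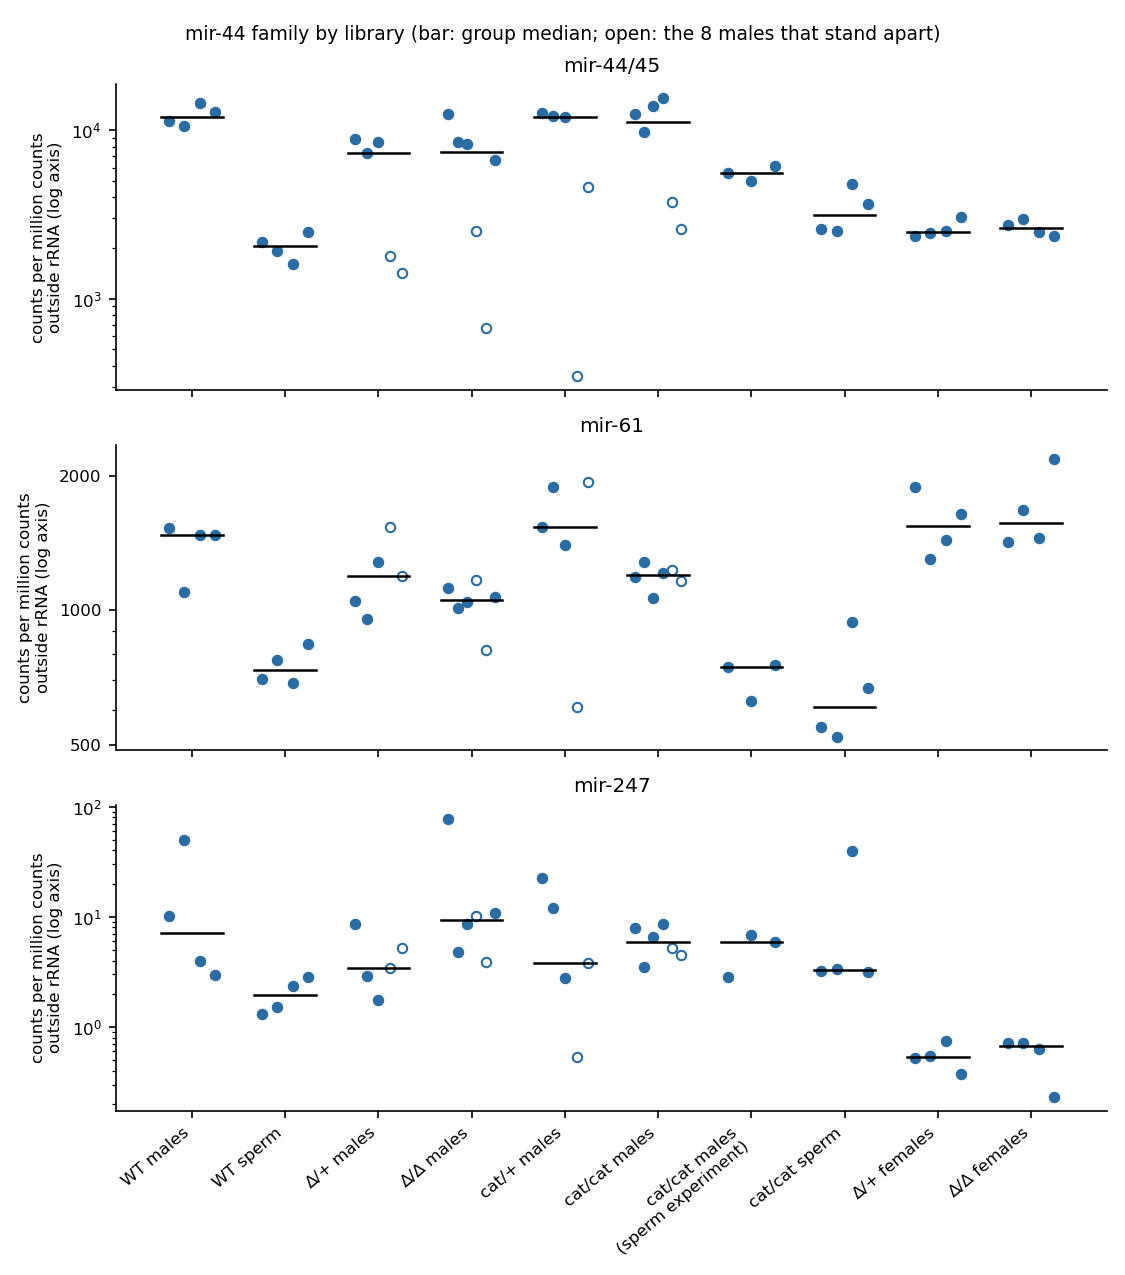
Levels of mir-44/45, mir-61 and mir-247 in each of the 45 libraries, in rpm on a log axis, by group. Each point is a library and the bars are group medians. mir-44/45 lies between 10541 and 14468 rpm in WT males and between 1601 and 2492 rpm in WT sperm, while 8 males of the *rnst-2* groups lie below the other males.

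The members had different orders over the 10 groups. By median, mir-44/45 was highest in WT males (12070 rpm), followed by *cat*/+ males (12038 rpm), *cat*/*cat* males (11136 rpm), ∆/∆ males (7437 rpm), ∆/+ males (7302 rpm) and the *cat*/*cat* males of the sperm experiment (5598 rpm). Below them came *cat*/*cat* sperm (3123 rpm), ∆/∆ females (2611 rpm), ∆/+ females (2478 rpm) and WT sperm (2049 rpm). Neighbours in this order overlapped, except that all *cat*/*cat* males of the sperm experiment were above all *cat*/*cat* sperm libraries. mir-61 spanned a narrower range, from 1564 rpm in ∆/∆ females and 1542 rpm in ∆/+ females to 610 rpm in *cat*/*cat* sperm. Its only gap between neighbours lay between ∆/∆ males (1058 rpm) and the *cat*/*cat* males of the sperm experiment (747 rpm). mir-247 was lowest in females, at 0.670 rpm (∆/∆) and 0.535 rpm (∆/+). Groups from different experiments are set side by side here, and group and experiment cannot be told apart between them.

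To ask how the family is distributed between sperm and the whole male, WT sperm were compared with WT males. All 3 features were lower in sperm in rpm, mir-44/45 far more than mir-61. mir-44/45 was at 11318, 10541, 14468 and 12822 rpm in the 4 WT male libraries and at 2176, 1921, 1601 and 2492 rpm in the 4 sperm libraries. The groups did not overlap, and the level in sperm was 6.0-fold lower (log2 difference −2.59 ± 0.15 SE, edgeR quasi-likelihood test with Benjamini-Hochberg adjustment over all small RNAs, adjusted p = 1.53e-07). mir-61 was at 1531, 1102, 1472 and 1476 rpm in males and at 701, 773, 687 and 841 rpm in sperm. Its groups did not overlap either, and it was 1.86-fold lower in sperm (−0.89 ± 0.13, edgeR adjusted p = 7.23e-05). mir-247 was at 10.2, 49.9, 3.97 and 2.96 rpm in males and at 1.31, 1.51, 2.35 and 2.84 rpm in sperm. It too was lower in sperm (−3.05 ± 0.76, edgeR adjusted p = 0.00322), and male replicate 2 stood far above the rest. Without that library the difference was −1.48 (edgeR adjusted p = 0.00821).

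These calls stand against a background in which 62.5% of the 24427 small RNAs tested passed the threshold, 35.7% higher and 26.8% lower in sperm. Of the miRNAs tested, 87.9% were lower and 1.21% higher, with a median log2 difference of −2.40 against 0.17 over all small RNAs. The decrease of mir-44/45 was thus close to that of the typical miRNA (number 97 from the lowest), and that of mir-61 was among the smallest (number 224). Somatic miRNAs fell as well. The summed level of mir-1 of muscle, mir-124 and lsy-6 of neurons, mir-60 of the gut and mir-228 of glia, all 5 detected in each library, was 13540 to 28250 rpm in males and 2264 to 4839 rpm in sperm, and its part in the results was not tested. Somatic mRNA-fragments went the other way, at 18.9 to 37.6 rpm in males and 241 to 507 rpm in sperm. In a whole-animal sample, fewer cells of a type and less RNA per cell cannot be told apart.

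In miRNA rpm the picture changed for mir-61, which was higher in sperm on this scale although it was lower in rpm. Its values were 4233, 2568, 3144 and 3420 miRNA rpm in males and 9010, 8638, 11258 and 8350 in sperm. The groups did not overlap, and mir-61 was 2.79-fold higher in sperm (1.48 ± 0.25, edgeR adjusted p = 6.57e-06). On this scale 85.7% of all small RNAs passed, 85.3% higher in sperm, with a median of 2.56, whereas of the miRNAs 21.1% were higher and 11.3% lower, with a median of −0.01. mir-44/45 was at 31295, 24565, 30892 and 29718 miRNA rpm in males and at 27955, 21457, 26236 and 24740 in sperm. These ranges overlapped and the difference did not pass the test (−0.21 ± 0.23, edgeR adjusted p = 0.373). That of mir-247 did not pass either (−0.66 ± 0.60, edgeR adjusted p = 0.306), and it was 0.82 without male replicate 2.

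The balance between mir-61 and mir-44/45 can be read within each library, where no library size enters. Both mature miRNAs are 21 nt long and share the seed. In WT males mir-61 had 0.135, 0.105, 0.102 and 0.115 counts for each count of mir-44/45, and in WT sperm 0.322, 0.403, 0.429 and 0.337. The ratio was 3.26-fold higher in sperm and the groups did not overlap. The exact two-sided permutation test gave p = 0.0286, the smallest that 4 against 4 libraries allow, and 0.1 after adjustment over the 7 comparisons made. None of the 7 passed after this adjustment. Between homozygotes and heterozygotes the exact p was 0.697 for ∆ males, 0.320 for *cat* males and 0.686 for ∆ females. The same direction held between *cat*/*cat* males (0.133, 0.126 and 0.123) and *cat*/*cat* sperm (0.211, 0.206, 0.195 and 0.184), 1.56-fold (exact p = 0.0571, the smallest that 3 against 4 libraries allow). The ratio in *cat*/*cat* sperm was 0.537 times that in WT sperm, again without overlap (exact p = 0.0286, the smallest possible, adjusted 0.1).

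**Figure D2:**
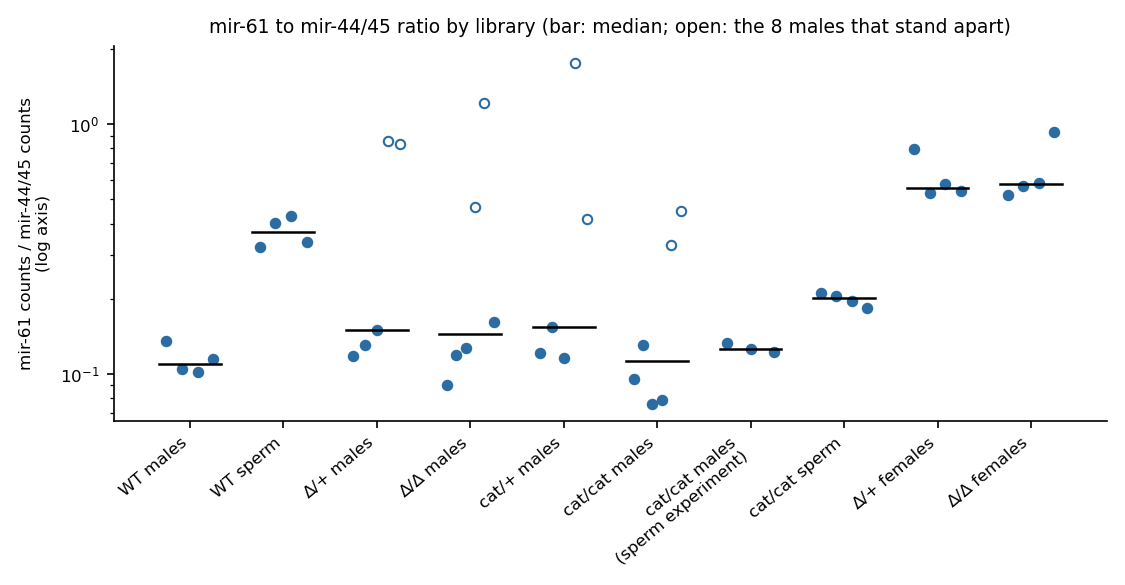
Ratio of mir-61 to mir-44/45 counts in each library, on a log axis, by group, with bars at group medians. WT males lie between 0.102 and 0.135, WT sperm between 0.322 and 0.429 and *cat*/*cat* sperm between 0.184 and 0.211, and 8 males of the *rnst-2* groups lie between 0.329 and 1.77.

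Among the males of the *rnst-2* genotypes, 8 of 22 libraries stood apart, a split that was made after the data were seen: replicates 4 and 5 of ∆/+, ∆/∆ and *cat*/+ males and replicates 5 and 6 of *cat*/*cat* males. They were found from 241 other miRNAs, with the members of the family left out, on the main axis of variation within groups (41.5% of the variance). Their scores lay between −33.9 and −1.14, and those of all other libraries between 2.23 and 8.73. Each genotype held 2 of them, and the labels give no batch for them. mir-44/45 separated the libraries in the same way although it was not on the axis: it was at 344 to 4631 rpm (median 2145) in the 8 libraries and at 6637 to 15470 rpm (median 10936) in the other 14. In miRNA rpm it was at 1834 to 17009 against 25509 to 65843. mir-61 did not separate them, at 609 to 1940 rpm (median 1180) against 958 to 1884 rpm (median 1154). As a result the ratio of mir-61 to mir-44/45 was 0.329 to 1.77 in the 8 libraries and 0.0762 to 0.161 in the others.

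The mean of the 8 libraries was set against that of the other 14, pooled over genotypes. In log2 of miRNA rpm mir-44 differed by −2.57, mir-45 by −2.48, mir-61 by 0.03 and mir-247 by −0.88. The median of the other miRNAs was −0.33. These values are a description with no test. At least 2-fold lower were 59 of the other miRNAs, and 4 were at least 2-fold higher. These other miRNAs, the somatic ones among them, made up the axis that picked the 8 libraries. That some of them differ follows from that choice and is no separate result. The somatic miRNAs moved in the same direction, with a sum of 2192 to 8363 rpm in the 8 libraries and 8213 to 20450 rpm in the 14, and lsy-6 was at 0 in ∆/∆ replicate 5 and *cat*/+ replicate 4. Sperm mRNA-fragments summed to 9.19 to 154 rpm (median 82.6, 2 to 13 of 13 markers found) against 31.5 to 159 rpm (median 66.0, 10 to 13 found). Fewer RNAs were detected, 11399 to 30190 against 24405 to 35634. The 8 libraries were also shallower, with a median of 5319980 counts outside rRNA (4704040 to 9250320) against 9945290 (5004010 to 12957400). The part of these measures in the difference was not tested. The neighbours of mir-44 did not show a gap of this kind: mir-42 was at 2.28 to 10.7 rpm in the 8 libraries and at 3.74 to 24.9 rpm in the 14, and mir-43 at 13.8 to 101 rpm and at 6.63 to 133 rpm.

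**Figure D3:**
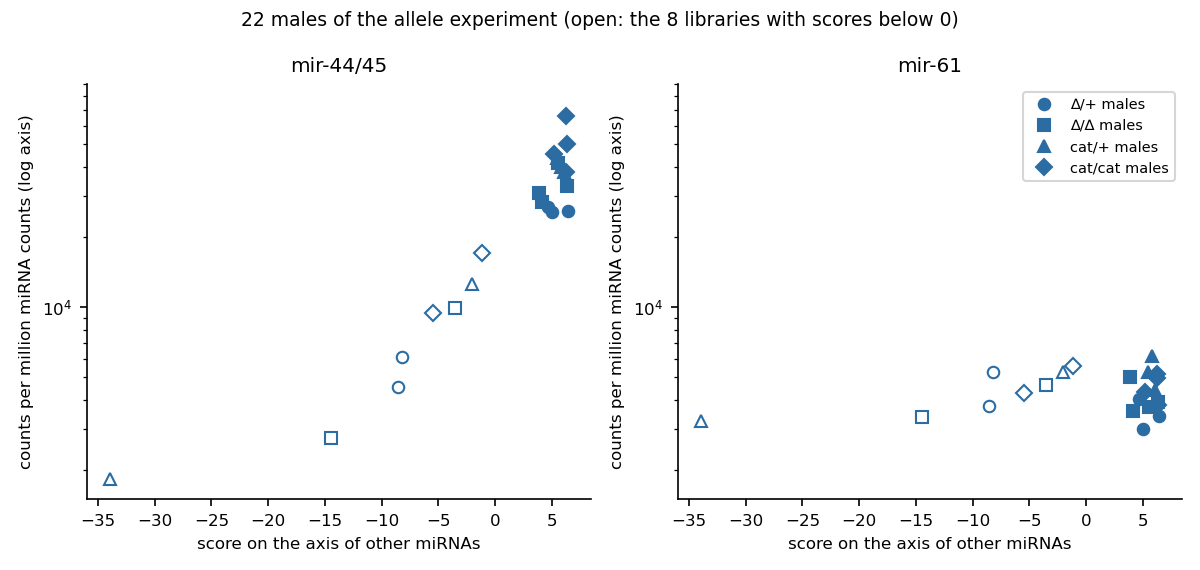
mir-44/45 and mir-61, in miRNA rpm on a log axis, against the score of each library on the main within-group axis of 241 other miRNAs. Points are libraries, and the 8 males that stand apart have scores from −33.9 to −1.14. mir-44/45 lies between 1834 and 17009 in them and mir-61 between 3240 and 5588.

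No member passed the test between *rnst-2* homozygotes and heterozygotes in males. mir-44/45 was at 8873, 7302, 8550, 1787 and 1426 rpm in ∆/+ males, and ranged from 668 to 12424 rpm (median 7437) in ∆/∆ males. The groups overlapped widely, and the difference was 0.22 ± 0.61 (log2, ∆/∆ against ∆/+, edgeR adjusted p = 0.955). In the *cat* allele it was at 12712, 12211, 12038, 344 and 4631 rpm in heterozygotes and from 2582 to 15470 rpm (median 11136) in homozygotes, a difference of 0.21 ± 0.63 (edgeR adjusted p = 0.959). Without the 8 libraries that stand apart the differences of mir-44/45 were 0.12 ± 0.17 for ∆ (edgeR adjusted p = 0.796) and 0.07 ± 0.11 for *cat* (adjusted p = 0.824) with smaller errors.

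mir-61 was at 1047, 958, 1281, 1538 and 1192 rpm in ∆/+ males and between 817 and 1167 rpm (median 1058) in ∆/∆ males. The ranges overlapped, with a difference of −0.21 ± 0.15 (edgeR adjusted p = 0.616). For *cat* it was at 1539, 1884, 1398, 609 and 1940 rpm in heterozygotes and between 1064 and 1280 rpm (median 1202) in homozygotes, a difference of −0.31 ± 0.24 (edgeR adjusted p = 0.661), or −0.44 ± 0.11 without the libraries that stand apart (adjusted p = 0.0657). The level of mir-247 was 8.52, 2.88, 1.74, 3.40 and 5.19 rpm in ∆/+ males and 3.87 to 77.8 rpm (median 9.41) in ∆/∆ males. The highest value belonged to replicate 1 alone, and the difference of 2.16 ± 0.76 did not pass (edgeR adjusted p = 0.178), falling to 0.81 without that library. In *cat* males mir-247 differed by −0.47 ± 0.69 (edgeR adjusted p = 0.886). The background was low in both comparisons, at 1.57% of all small RNAs for ∆ (237 RNAs, or 370 with the replicate numbers as pairs) and 0.585% for *cat*. In miRNA rpm no member passed either, where 1.21% of all small RNAs passed for ∆ and 0.849% for *cat*. The effects of both alleles were also compared with each other, and no member passed. Of 19405 small RNAs 0.0% passed by edgeR, 525 had an unadjusted p under 0.05 and DESeq2 called 1.

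In sperm, the *cat*/*cat* libraries were compared with those of WT, which come from another experiment, so that genotype and experiment cannot be told apart. mir-44/45 was at 2595, 2536, 4814 and 3651 rpm in *cat*/*cat* sperm, above each of the 4 WT sperm libraries given above (1601 to 2492 rpm). The difference was 1.66-fold (0.73 ± 0.23, edgeR adjusted p = 0.0164), and without WT sperm replicate 3 it no longer passed (0.63, adjusted p = 0.0565). With all counts as library size, which includes the rRNA-fragments, the sign turned (−0.40, adjusted p = 0.199). In miRNA rpm the levels were 45960, 48090, 51017 and 46527 in *cat*/*cat* sperm against 21457 to 27955 in WT sperm, and the difference was 0.93 ± 0.36 (edgeR adjusted p = 0.0272). That call was lost without any of 5 of the 8 libraries (WT sperm replicates 1, 2 and 4 and *cat*/*cat* sperm replicates 2 and 4, adjusted p from 0.0521 to 0.0919).

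mir-61 was at 548, 523, 940 and 671 rpm in *cat*/*cat* sperm, on both sides of WT sperm (687 to 841 rpm), with replicates 1, 2 and 4 below it and replicate 3 above it. It did not pass on either scale (−0.16 ± 0.19, edgeR adjusted p = 0.488, and 0.03 ± 0.35 in miRNA rpm). mir-247 was at 3.22, 3.34, 39.96 and 3.15 rpm, all above the WT sperm libraries. It was higher by 2.58 ± 0.73 (edgeR adjusted p = 0.00985), but this size came from replicate 3, without which the difference was 0.67 and did not pass (adjusted p = 0.103). Of all small RNAs, 55.6% passed, and of 233 miRNAs 63.5% were higher and 7.30% lower, with a median of 1.80 against 0.02 over all RNAs. With all libraries in the fit, the increase of mir-44/45 was smaller than that of the typical miRNA (number 65 from the lowest of 233). So was the difference of mir-61 (number 29). The median and these ranks include *cat*/*cat* sperm replicate 3, where mir-247 and other miRNAs given below stood far above the other libraries. They are not given without it. In miRNA rpm 41.4% of all RNAs passed and the median of miRNAs was 1.86. On that scale mir-247 was higher by 2.55 ± 0.38 (edgeR adjusted p = 1.09e-09), and this call held with each library left out in turn (1.04 to 2.88). The somatic miRNAs summed to 5696 to 8875 rpm in *cat*/*cat* sperm and 2264 to 4839 rpm in WT sperm, and somatic mRNA-fragments to 702 to 1020 rpm against 241 to 507 rpm (all 5 and all 10 markers found in each library). mir-228 made up most of the first sum, and the other somatic miRNAs set *cat*/*cat* sperm replicate 3 apart, the library that also set the value of mir-247. There mir-1 was at 390.5 rpm against 8.94 to 10.1 rpm in the other 3, lsy-6 at 158.5 rpm against 2.53 to 5.43 rpm and mir-124 at 93.1 rpm against 4.61 to 5.78 rpm. mir-60 overlapped between the groups, at 25.8 to 73.2 rpm in *cat*/*cat* and 22.3 to 49.98 rpm in WT sperm. The part of these RNAs in the results was not tested.

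Within the *cat*/*cat* experiment, sperm and whole males could be compared directly. mir-44/45 was at 5598, 4986 and 6151 rpm in the males (replicates 1, 3 and 4), above each of the sperm libraries. It was 1.64-fold lower in sperm (−0.71 ± 0.23, edgeR adjusted p = 0.0162), and this call was lost without male replicate 4 (−0.64, adjusted p = 0.0643), with TMM factors (−0.46, adjusted p = 0.0864) and with DESeq2 (−0.41, adjusted p = 0.160). In miRNA rpm the direction was the opposite: 24202, 24913 and 25326 in males against 45960 to 51017 in sperm, a difference of 0.95 ± 0.32 (edgeR adjusted p = 0.0101). This second call was lost without male replicate 1 (adjusted p = 0.0647) or 3 (adjusted p = 0.0515). The sum of the somatic miRNAs moved with mir-44/45 on both scales, without overlap. It was 15480 to 19840 rpm in the males and 5696 to 8875 rpm in sperm, and 63760 to 85790 miRNA rpm against 94060 to 108000. mir-228 made up most of it (15330 to 19720 rpm in the males, 5647 to 8160 rpm in sperm). In sperm replicate 3, mir-1 (390.5 rpm), mir-124 (93.1 rpm) and lsy-6 (158.5 rpm) were above all of the males (at most 37, 13.5 and 13.2 rpm). In the other sperm libraries these miRNAs were below all of the males. Somatic mRNA-fragments went the other way in rpm, at 73.1 to 162 rpm in the males and 702 to 1020 rpm in sperm. The part of the somatic miRNAs and mRNA-fragments in these differences was not tested.

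mir-61 was at 747, 627 and 755 rpm in the *cat*/*cat* males, overlapping the sperm libraries, with a difference of −0.08 ± 0.21 (edgeR adjusted p = 0.738), whose sign was positive with TMM factors (0.17). In miRNA rpm it was at 3228, 3131 and 3108 in males and at 9705, 9911, 9960 and 8554 in sperm. On that scale it was 3.02-fold higher in sperm (1.59 ± 0.34, edgeR adjusted p = 9.06e-05), the same direction as in WT. mir-247 did not pass in rpm (1.24 ± 0.89, edgeR adjusted p = 0.225), and was −0.67 without *cat*/*cat* sperm replicate 3. In miRNA rpm mir-247 was higher by 2.66 ± 0.59 (adjusted p = 0.000181), or by 1.16 without that library (adjusted p = 0.0282). The background in this comparison was 72.7% of all small RNAs in rpm and 60.2% in miRNA rpm, where 71.2% of miRNAs were higher in sperm. The median log2 difference of miRNAs was 0.45 in rpm and 1.95 in miRNA rpm. On the latter scale mir-61 (1.59) and mir-44/45 (0.95) rose by less than the median, whereas in WT mir-61 (1.48) was above a median of −0.01. The medians of the *cat*/*cat* comparison include sperm replicate 3 and are not given without it.

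The differences between sperm and males in the 2 genotypes were set against each other in a single fit, again across experiments. The fall of mir-44/45 from males to sperm was 1.87 ± 0.28 log2 units smaller in *cat*/*cat* (edgeR adjusted p = 0.000381), and it passed with each of the 15 libraries left out in turn (1.65 to 1.99). The value for mir-61 was 0.81 ± 0.25 (adjusted p = 0.0397), a call lost without 11 of the 15 libraries, singly. mir-247 gave 4.29 ± 1.28 (adjusted p = 0.0328), lost without 7 of the 15, among them *cat*/*cat* sperm replicate 3 (2.38, adjusted p = 0.157) and WT male replicate 2 (2.73, adjusted p = 0.0943). In this test 13.3% of 27833 small RNAs passed, and 48.0% of miRNAs passed in the same direction, with a median of 2.56 over miRNAs. mir-44/45 therefore moved in the direction of most miRNAs and by less than their median, with *cat*/*cat* sperm replicate 3 in the fit. The median is not given without that library. In miRNA rpm, where 21.1% of all RNAs passed, mir-44/45 remained past the threshold (1.16 ± 0.33, adjusted p = 0.0150), as did mir-247 (3.32 ± 1.05, adjusted p = 0.0266), while mir-61 did not (0.12 ± 0.35, adjusted p = 0.837).

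**Figure D4:**
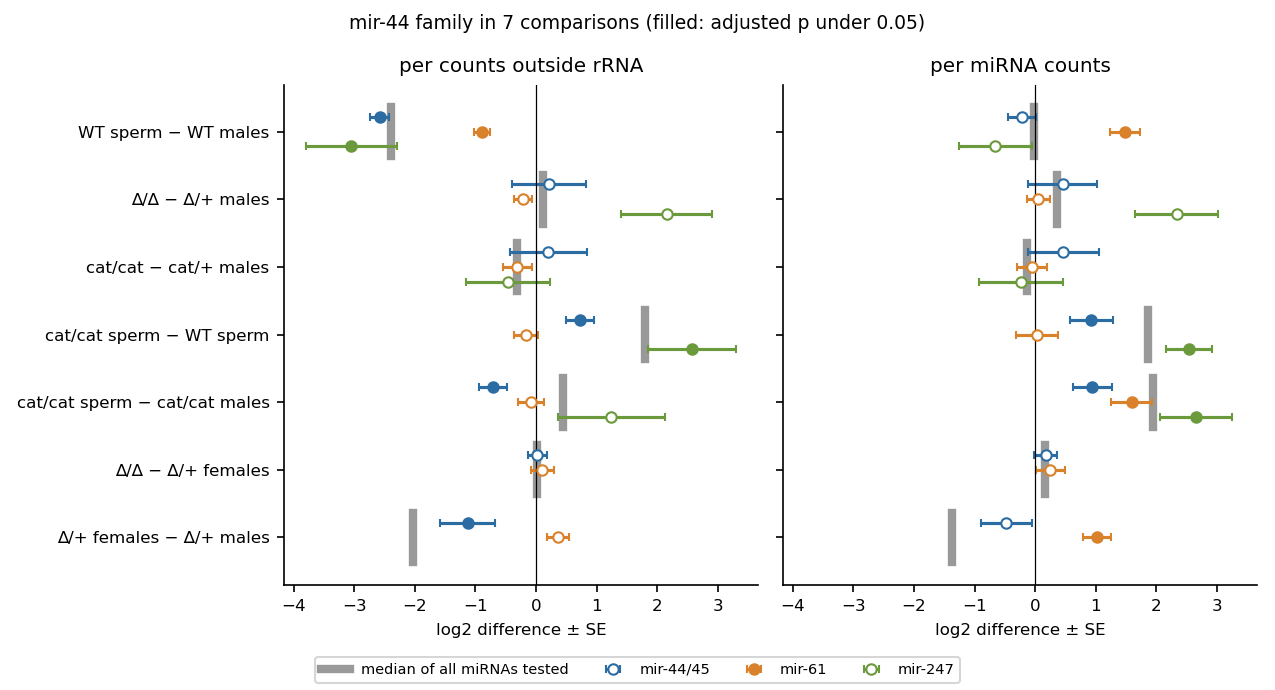
Log2 differences of mir-44/45, mir-61 and mir-247 in each comparison, with edgeR standard errors as bars, in rpm and in miRNA rpm, beside the median of all miRNAs tested (grey). mir-247 is not drawn where females enter. Filled points passed an adjusted p of 0.05. For WT sperm against WT males mir-44/45 is at −2.59 and mir-61 at −0.89 on the first scale, and mir-61 changes sign to 1.48 on the second, while the comparisons of ∆ and *cat* homozygotes with heterozygotes hold no member past the threshold.

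In females, which make no sperm in this background, neither mir-44/45 nor mir-61 passed the test between ∆/∆ and ∆/+. mir-44/45 was at 2363, 2450, 2506 and 3047 rpm in ∆/+ females and at 2721, 2954, 2501 and 2352 rpm in ∆/∆ females. The difference was 0.02 ± 0.16 (edgeR adjusted p = 1.00). mir-61 was at 1888, 1304, 1439 and 1644 rpm in ∆/+ females and at 1419, 1676, 1452 and 2184 rpm in ∆/∆ females, a difference of 0.10 ± 0.19 (edgeR adjusted p = 1.00). Neither passed in miRNA rpm (edgeR adjusted p = 0.951 for both), where 0.0746% of all small RNAs passed. mir-247 had 2 to 13 counts per female library, too few for the minimum of 10 counts, and was not tested. Of all small RNAs, 0.0203% passed. The difference between the effects of ∆ in females and in males did not pass for mir-44/45 or mir-61 on either scale, where 0.129% of all small RNAs passed in rpm, and mir-247 is not counted because its female counts were too low.

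Heterozygous ∆/+ females and males come from different experiments, so sex and experiment cannot be told apart. mir-44/45 was lower in females, at 2363 to 3047 rpm, than in the 3 male libraries that do not stand apart (7302 to 8873 rpm), and the 2 that do (1787 and 1426 rpm) were below all females. Over all 5 males the difference was −1.13 ± 0.46 (edgeR adjusted p = 0.0415), which was lost without any of male replicates 1 to 3 or any of the 4 female libraries (−1.38 to −0.90 over all 9 libraries left out in turn). Without the 2 males that stand apart the difference was −1.69 ± 0.16 (edgeR adjusted p = 1.05e-07). Those males were left out after the data were seen and are the lowest of the ∆/+ males in mir-44/45. The p-value of that fit therefore cannot be read as a test of mir-44/45. The somatic miRNAs moved in the same direction, with a sum of 4688 to 6579 rpm in ∆/+ females against 15400 to 20450 rpm in the 3 other males (27110 to 29910 against 54610 to 64090 in miRNA rpm). mir-228 made up most of this sum (4627 to 6506 rpm in the females). Somatic mRNA-fragments overlapped, at 13.9 to 62.1 rpm in ∆/+ females and 6.34 to 164 rpm over all ∆/+ males. The part of these RNAs in the difference was not tested. mir-61 overlapped between the sexes in rpm (0.37 ± 0.18, edgeR adjusted p = 0.0919), and with TMM factors its sign turned (−0.07). In miRNA rpm it was at 10922, 6010, 7105 and 7475 in females and at 3011, 3399, 4015, 5243 and 3777 in males. These groups did not overlap, and mir-61 was 2.03-fold higher in females (1.02 ± 0.23, edgeR adjusted p = 0.000703). On the same scale mir-44/45 did not pass with all males (−0.47 ± 0.42, adjusted p = 0.309). It gave −1.03 ± 0.19 without the 2 libraries (edgeR adjusted p = 2.68e-05), where the same limit applies.

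mir-247 was at 0.520, 0.551, 0.740 and 0.378 rpm in ∆/+ females, from 3 to 11 counts per library, and at 1.74 to 8.52 rpm in ∆/+ males. It reached the minimum count through the males alone, so that it could only enter the fit where males were higher, and no test is given. Of all small RNAs 65.7% passed, and of 228 miRNAs 68.0% were lower and 8.33% higher in females, with a median of −2.03. In miRNA rpm 73.7% of all RNAs passed, 57.0% of miRNAs were lower and 14.5% higher, and the median was −1.37. The ratio of mir-61 to mir-44/45 was 0.799, 0.532, 0.574 and 0.540 in ∆/+ females and 0.118, 0.131, 0.150, 0.861 and 0.836 in ∆/+ males. All females were above the 3 males that do not stand apart, and the exact permutation test over all 5 males gave p = 0.238.

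The miRNA genes beside the members were followed in the same fits. From WT males to WT sperm all 4 fell in rpm. On the log2 scale mir-42 fell by 3.25, mir-43 by 2.60, mir-250 by 0.85 and mir-797 by 1.23. All passed, as did 87.9% of miRNAs in that direction, with a median of −2.40. In size mir-43 was close to mir-44/45 (−2.60 and −2.59), both near that median, and mir-250 to mir-61 (−0.85 and −0.89). mir-42, at the same locus as mir-43, fell by more, and mir-797 fell by less than mir-247 (−3.05). mir-44/45 sums mir-44 and mir-45, and mir-45 has no such neighbour. In miRNA rpm, where 21.1% of miRNAs were higher, mir-250 rose by 1.48 ± 0.31 (edgeR adjusted p = 9.35e-05), beside 1.48 for mir-61. In *cat*/*cat* sperm against WT sperm, where 63.5% of miRNAs were higher, all 4 neighbours were past the threshold (mir-42 3.49, mir-43 2.06, mir-250 0.87 and mir-797 2.06). Replicate 3 of *cat*/*cat* sperm carried much of this. mir-43 was at 53.4 rpm in that library and 6.22 to 8.59 rpm in the other 3, mir-797 at 31.2 rpm and 2.06 to 3.92 rpm, and mir-42 at 61.9 rpm and 5.78 to 7.97 rpm. Without it mir-43 was 0.73 (edgeR adjusted p = 0.141) and mir-797 0.40 (adjusted p = 0.297), and neither passed, while mir-42 (1.92, adjusted p = 0.000179) and mir-250 (0.63, adjusted p = 0.0160) did. Leaving out WT sperm replicate 1 also ended the calls of mir-43 (adjusted p = 0.0516) and mir-797 (adjusted p = 0.0506), and with all counts as library size only mir-42 passed (2.28) and mir-250 turned to −0.28. mir-61 did not pass there, and the difference between mir-61 and mir-250 was not tested. In ∆/+ females against ∆/+ males, where 68.0% of miRNAs were lower, mir-43 differed by −3.26 ± 0.42 (edgeR adjusted p = 8.77e-06). mir-250 did not pass there (0.27 ± 0.19, adjusted p = 0.232). None of the 4 passed in the comparisons of homozygotes with heterozygotes, except that mir-43 did for ∆ males with no filter on low counts (1.34, adjusted p = 0.000249).

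Over the 10 group means of log2(miRNA rpm + 1), mir-44/45 and mir-61 were nearly uncorrelated (Pearson r = 0.0579), and mir-61 ranked 215 of 243 other miRNAs by likeness to mir-44/45. mir-247 had r = 0.797 with mir-44/45 and −0.177 with mir-61. The miRNAs most like mir-44/45 were mir-8207 (r = 0.908), mir-87 (0.906), lsy-6 (0.896), mir-4921 (0.895) and mir-8206 (0.884). Of these mir-87 and lsy-6 kept values of 0.869 and 0.861 when the 8 male libraries that stand apart were left out, while mir-8207 and mir-8206, with a mean of 20.4 and 13.5 counts, came to 0.677 and 0.650. Those most like mir-61 were mir-8196a (0.886), mir-8196b (0.883), mir-786 (0.863), mir-5545 (0.857) and mir-85 (0.819). Neighbours were not the closest: mir-250 ranked 17 of 243 for mir-61 (r = 0.673), and mir-42 and mir-43 had r = 0.674 and 0.648 with mir-44/45. These correlations describe 10 groups that share libraries' depth and experiment, and carry no test.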

How the data were processed

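Per the study's methods, the authors removed adapters with Trimmomatic and used Bowtie 2 for rRNAs first, then miRNAs, then tRNAs and piRNAs, with the remaining reads placed by STAR (WS245) and counted by featureCounts. Their versions are not given in the sources used here. The deposited values are counts, not normalized. The WT sperm libraries are listed in 2 tables with identical values (4 of 4) and were used once. Of 83 pairs of replicates none was identical. 1 unnamed column of the female table was not used, and its piRNA rows, with 9 values under 8 names, were left out of fits with females.

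mir-44 and mir-45 were summed, and tRNA genes were summed by isoacceptor. edgeR 4.0.16 (quasi-likelihood, R 4.3.3, limma 3.58.1) was fitted over all small RNAs that reached 10 counts in enough libraries to fill the smaller group, with counts outside rRNA or miRNA counts as library size, no further factors, Benjamini-Hochberg adjustment and a threshold of 0.05. Ratios were compared with exact two-sided permutation tests (Python 3.11.15, scipy 1.17.1, numpy 2.4.6, pandas 2.3.3). Alternatives were all counts as library size, TMM factors, DESeq2 1.42.0, no filter, mir-44 and mir-45 apart, a pseudocount of 1 in the ratio, a replicate block, and each library left out. Fits without or only with the 8 male libraries that stand apart, and with these as a term, and the alternatives for neighbouring miRNAs, were chosen after the data were seen. The fits were tested on simulated data. Sequences and positions come from RefSeq WBcel235 and were not used to place reads.

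The text names the members, miRNA genes within 2000 bp on the same strand, the 5 miRNAs most correlated with mir-44/45 and with mir-61 among those with a mean of at least 10 counts, marker genes and *rnst-2*. Members and lists were chosen with earlier results of these data known. Same-numbered libraries of ∆ males deviated from their groups together (correlations of 0.179 to 0.431, median 0.335, over 5 pairs), which meets the rule set for pairs. The values given are from fits without that pairing, and the fit with the replicate numbers as a block was an alternative. No other comparison had every pair over 0.1. The study names its libraries biological replicates. Members' counts set the counting error, which is small for mir-44/45 and mir-61 and large for mir-247.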

Additional observations from a re-analysis of the deposited data

Results flagged for a closer look

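In 72 combinations of a group of 4 to 6 libraries with a quantity, 13 values from 7 libraries lay beyond Dixon's 95% critical value. Chance would flag about 1 in 20 combinations of normal and independent values. The quantities of a library share counts and are not independent, so the number flagged is not set against that rate. mir-247 was at 49.9 rpm in WT male replicate 2, with the other 3 at 2.96 to 10.2 rpm, and mir-61 was lowest in the same library (1102 rpm against 1472 to 1531 rpm). mir-247 was at 77.8 rpm and 259 miRNA rpm in ∆/∆ male replicate 1, against 3.87 to 10.8 rpm and 15.9 to 50.3 miRNA rpm in the others. In *cat*/*cat* sperm replicate 3 it was at 39.96 rpm and 423 miRNA rpm, against 3.15 to 3.34 rpm and 40.2 to 63.3 miRNA rpm. mir-247 was lowest in ∆/∆ female replicate 4, at 1.44 miRNA rpm (from 2 counts) against at least 3.43 in the others.

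The share of mir-45 in the summed counts of mir-44 and mir-45 stood out in the same *cat*/*cat* sperm library, at 59.0% against 50.3% to 50.9%, and in ∆/∆ male replicate 5, at 53.8% against 50.4% to 50.7%. The ratio of mir-61 to mir-44/45 stood out in ∆/∆ male replicate 5 (1.22 against 0.0901 to 0.466) and *cat*/+ male replicate 4 (1.77 against 0.116 to 0.419), which are among the 8 libraries that stand apart. It also stood out in ∆/+ female replicate 1 (0.799 against 0.532 to 0.574) and ∆/∆ female replicate 4 (0.929 against 0.522 to 0.581).

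The log2 difference between sperm and whole males was higher in *cat*/*cat* than in WT by the edgeR test of the difference itself for mir-44/45 (1.87 in rpm and 1.16 in miRNA rpm), mir-61 (0.81 in rpm) and mir-247 (4.29 in rpm and 3.32 in miRNA rpm), with genotype and experiment not told apart.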

How the results depend on the processing

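The number of the family's 3 features that passed is given per comparison. With ∆/∆ against ∆/+ males it was 0, and 1 with no filter on low counts (also in miRNA rpm) and with all counts as library size. With *cat*/*cat* against WT sperm it was 2, and 1 with all counts, where mir-44/45 turned to −0.40. In miRNA rpm it was 2 there, and 1 with no filter and with the replicate block. With *cat*/*cat* sperm against males it was 1, and 2 with no filter or all counts and 0 with TMM factors or DESeq2, where DESeq2 gave mir-247 no adjusted p. Leaving out each library in turn gave 1 to 2 in *cat*/*cat* against WT sperm on both scales, 0 to 1 in *cat*/*cat* sperm against males, 2 to 3 in miRNA rpm there, 0 to 2 in females against males (mir-44/45 and mir-61 counted, 1 with all libraries) and 1 to 3 in the comparison of both sperm differences. Without the 2 males that stand apart it was 2 in females against males on both scales, against 1 in miRNA rpm with all libraries. That fit was chosen after the data were seen and drops the ∆/+ males lowest in mir-44/45. For WT sperm against males the number stayed at 3 in rpm and 1 in miRNA rpm under every alternative run.

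The numbers of RNAs called over all classes moved more than those of the members. For ∆ males 237 became 466 with no filter, 370 with the replicate block, 2022 with all counts, 489 with DESeq2, 483 with standing apart as a term, 8 with only the libraries that stand apart and 100 to 544 with a library left out. In miRNA rpm 183 became 507, 307 without those libraries and 33 with only those. For *cat* males 95 became 661, 9, 1968 and 463 with no filter, block, all counts and DESeq2, 336 without those libraries, 0 with only those (edgeR) and 61 to 425 with a library left out. In miRNA rpm 138 became 799, 52 with the block, 408, 4 and 81 to 482. In females 3 became 95, 14, 6 and 15, and 11 became 87 and 22 in miRNA rpm. With no filter 20935 became 35008 (WT sperm) and 11098 became 19611 (*cat*/*cat* sperm against males), both in miRNA rpm. For the sex difference of the ∆ effect 26 became 150 with DESeq2 and 40 without the libraries that stand apart, 31 became 51 in miRNA rpm, and the comparison of sperm differences went from 3688 to 8806 with all counts. The cause of these changes was not tested. All counts as library size moved the median of all RNAs by −1.10 (*cat*/*cat* against WT sperm) and −0.99 (*cat*/*cat* sperm against males). The replicate block ended the mir-44/45 call in miRNA rpm in *cat*/*cat* sperm against WT sperm (adjusted p = 0.0669) and against males (0.0701), comparisons whose libraries share only a number, and changed no other call of a member. Depth limits mir-247, whose 2 to 821 counts let 1 library decide its value in several groups.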
